A study of Mus musculus with 18 samples.

Results

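The comparison described here set reaggregated mesodermal cells sorted as E+F+ against cells sorted as E+F-, both cultured with the vehicle DMSO. It comprised 6 of the 18 RNA-seq libraries of the study, 3 for each population, numbered Sets 1, 2 and 3, and all 20321 genes of the deposited table were considered. The cells came from GFP-Bry mouse embryonic stem (ES) cells, a single ES cell line in which GFP was placed in the Brachyury (T) locus so that mesoderm formation can be followed by fluorescence. They were differentiated into embryoid bodies, the GFP-expressing cells were sorted by Endoglin (E, gene Eng, a co-receptor for TGF-beta and BMP ligands) and Flk-1 (F, gene Kdr, a VEGF receptor), and each fraction was reaggregated for 24 h before RNA was taken. E+F+ therefore means positive for both surface proteins at the sort, and E+F- means positive for Endoglin and negative for Flk-1. Of the other 12 libraries, 6 held the same 2 populations reaggregated with 10 µM IWR-1, an inhibitor of canonical Wnt signalling, and 6 held unsorted cells. The study describes the Sets as independent biological samples. Counts of the same population differed between Sets by more than sampling noise, at 15.6 to 59.4 chi-square per degree of freedom.

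Mesoderm arises in the primitive streak, where Wnt, FGF and Nodal signals keep cells in a streak-like state, and the earliest cells to leave it form the blood islands and vessels of the yolk sac. Flk-1 marks the mesoderm from which blood and endothelium arise, and the first blood cells are primitive erythroblasts, which load haem and globin and depend strongly on glycolysis. The comparison asks how the Flk-1-positive and Flk-1-negative parts of Endoglin-positive mesoderm differed after a further period of culture. The sort markers were read first as a check of the labels. In E+F+ Sets 1, 2 and 3, Kdr was at 11.8, 13.4 and 7.69 TPM (reads per transcript length, scaled to the same total in every library) and in E+F- at 25.2, 75.3 and 37.6 TPM, so after reaggregation its RNA was lower in the fraction sorted for its protein (log2 fold change E+F+ over E+F- -1.96 ± 0.59 SE, adjusted p = 0.0235, edgeR). That call was lost without E+F+ Set 1, without E+F+ Set 3 or without E+F- Set 2, at an adjusted p of up to 0.122. Eng was at 4.41 to 7.50 TPM in E+F+ and 2.58 to 7.07 TPM in E+F-, and the groups overlapped (log2 0.16 ± 0.45, adjusted p = 0.83). The labels of the sort could not be checked from these 2 transcripts.

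Library totals lay between 19725500 and 26478754 expected counts, which are the read numbers that RSEM assigns to each gene. Correlation of log2 expression was 0.985 to 0.990 within E+F+ and 0.969 to 0.986 within E+F-, and the first principal component, with 73.5% of the variance, separated the populations. E+F- Set 3 stood apart on the second (13.3%), at -53.4 against 33.9 and 18.97 for E+F- Sets 1 and 2. Rows of the mitochondrial genome took 1.32 to 2.20% of counts in E+F+ and 2.46 to 3.32% in E+F-, and the part of that difference in the results below was not tested. Markers of primitive erythroid cells summed to 700 to 4317 TPM in E+F+ and 2.94 to 156 TPM in E+F-, with 3 of 6 called higher. Most of that sum in E+F+ came from members that were not called. All 5 tested endothelial markers were called higher (23.6 to 41.6 against 1.67 to 7.61 TPM). Of ES cell markers 5 of 6 were called lower (43.4 to 68.8 against 99.6 to 134 TPM). Megakaryocyte markers summed to 17.4 to 36.8 TPM in E+F+ and 1.27 to 4.92 TPM in E+F-, with 1 of 3 tested higher (Itga2b, mean 23.7 against 2.56 TPM) and Pf4 under 1 TPM throughout. White cell markers summed to 5.25 to 10.3 and 6.25 to 13.6 TPM, with Spi1 higher and Cd68 lower of 4 tested and Ptprc and Csf1r under 1 TPM. Cardiomyocyte markers summed to 12.4 to 25.1 and 16.7 to 27.7 TPM, with 1 of 4 tested higher (Tnnt2, mean 11.5 against 1.14 TPM), 2 lower, and Myh6 and Myh7 under 1 TPM. Fibroblast markers summed to 25.2 to 28.7 and 5.26 to 15.6 TPM, with 1 of 5 tested higher (Postn), 1 lower, and Dcn and Lum under 1 TPM. The part of these cell types in the results below was not tested. In bulk RNA, fewer cells of a type and less RNA per cell cannot be told apart.

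Of 13826 genes with enough counts to test, 3681 (26.6%) were called at an adjusted p under 0.05 by edgeR's quasi-likelihood test, 1770 (12.8%) higher in E+F+ and 1911 (13.8%) lower. These shares are the background against which every list below is read, together with the median log2 difference of all tested genes, -0.01. The directions differed in size: the median called difference was 0.79 on the log2 scale for the higher genes and 1.66 for the lower genes, and 188 genes were at least 8-fold higher where 431 were at least 8-fold lower. Genes called higher held 18.5 to 19.9% of all TPM in E+F+ and 11.1 to 13.7% in E+F-, and genes called lower held 1.70 to 1.88% in E+F+ and 4.02 to 4.88% in E+F-. At least 2-fold differences made up 14.7% of tested genes, 5.33% higher and 9.41% lower. TPM values did not overlap between the populations for 13.3% of genes on the higher side and 29.6% on the lower side. Of the calls, 2678 were genes in none of the 95 lists used to group them, and 3341 had TPM values that did not overlap between the populations. The split between directions moved with the scale, since limma on log2(TPM + 1) called 1081 genes higher and 2191 lower, with a median of all tested genes at -0.10.

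**Figure D1:**
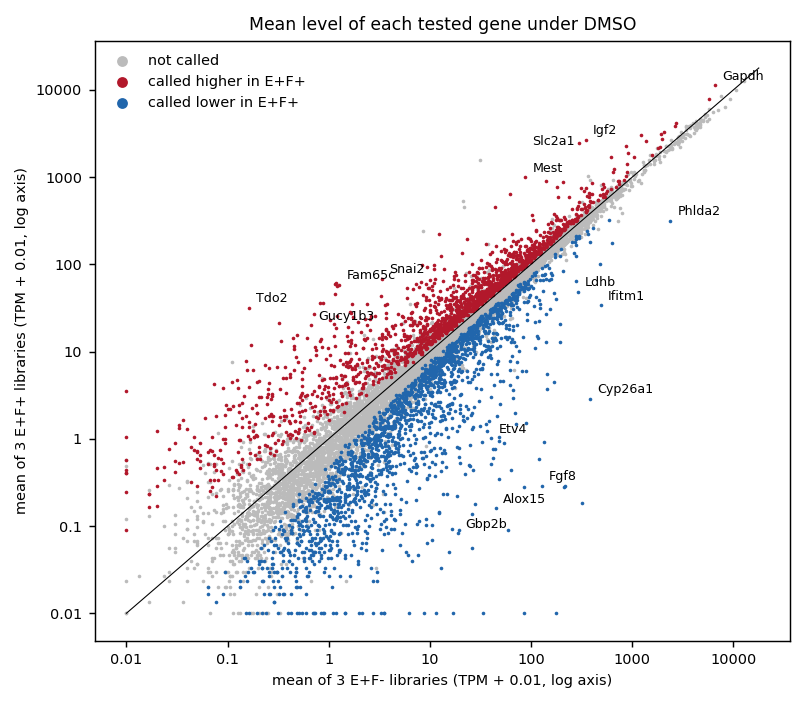
Mean level of each tested gene in the 3 E+F+ libraries (vertical axis) against the 3 E+F- libraries (horizontal axis), both in TPM + 0.01 on log axes, red for genes called higher in E+F+ and blue for genes called lower. Blue genes lie far from the diagonal at low E+F+ levels, whereas red genes extend to the most abundant transcripts, among them Gapdh.

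Most calls (2678 of 3681) were in none of the 95 lists, and the lists were chosen with earlier results of these data known. Among the calls in lists, 4 abundant programmes that were higher in E+F+ are described below (red cell, oxygen and glucose, sterol, stress). A larger number of developmental and immune groups that were lower is described after them. Promoter sequences of a few members are shown first. Short motifs were found in called members of some lists more often than in all tested genes with a promoter. RefSeq promoter windows (build GRCm38.p6, 250 bases before an annotated start) were found for 11052 of the tested genes, 10365 by symbol and 687 by synonym, and 11 motifs were searched on both strands over 74 groups of at least 5 called list members. Of the 11, 4 were added after values had been seen, and the genes shown were picked because they hold a match in a stretch with at most 6 bases in an exon annotated by GENCODE. A gene counted as matched if any of its windows held the motif, so genes with several starts had more chances. A match is a run of letters in a window, not a bound site. List members that were not called were not searched as a group. The shares therefore describe the genes gathered in a list and cannot be tied to the difference between the populations. In the stretches of 90 bases below, written 5′ to 3′ on the gene's strand, capitals mark the motif or its reverse complement.

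The GATA motif AGATAA was in 7.30% of all genes with a window and in 5 of 11 red cell membrane genes called higher (Art4, Epb4.2, Trim10, Kel and Icam4). The hypoxia-inducible factor core ACGTG was in 24.7% of all genes with a window and in 7 of 10 of the hypoxia response genes called higher.
Trim10 (chr17:36869369-36869458, plus strand): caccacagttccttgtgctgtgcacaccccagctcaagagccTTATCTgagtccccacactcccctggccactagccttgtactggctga
Kel (chr6:41704334-41704423, minus strand): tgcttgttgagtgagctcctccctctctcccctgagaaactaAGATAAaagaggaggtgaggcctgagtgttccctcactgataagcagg
Bnip3 (chr7:138909567-138909656, minus strand): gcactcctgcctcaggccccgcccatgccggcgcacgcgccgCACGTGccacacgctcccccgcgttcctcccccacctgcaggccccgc
Ero1l (chr14:45318589-45318678, minus strand): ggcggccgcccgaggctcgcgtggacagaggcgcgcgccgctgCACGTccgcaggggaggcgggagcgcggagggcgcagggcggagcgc

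The inverted CCAAT box ATTGG was in 40.6% of all genes with a window and in 14 of 15 of the cholesterol genes called higher. The sterol regulatory core CACNCCAC was in 3 of those 15 (6.69% of all genes with a window). The core of the interferon-stimulated response element was searched as TTTC and TTTC with any 2 bases between. It matched 2.99% of all genes with a window and 13 of 29 genes called lower in the interferon-stimulated and antigen presentation list. Mvk holds 3 ATTGG matches and Isg15 holds 3 overlapping matches of the interferon motif.
Hmgcs1 (chr13:119690261-119690350, plus strand): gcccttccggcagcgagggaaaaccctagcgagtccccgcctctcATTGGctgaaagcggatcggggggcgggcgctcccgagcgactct
Mvk (chr5:114444179-114444268, plus strand): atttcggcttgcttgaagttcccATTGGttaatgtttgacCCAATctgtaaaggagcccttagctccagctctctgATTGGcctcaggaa
Isg15 (chr4:156200835-156200924, minus strand): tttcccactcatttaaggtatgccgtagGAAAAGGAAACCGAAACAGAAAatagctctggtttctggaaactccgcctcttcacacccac
Gbp2b (chr3:142594670-142594759, plus strand): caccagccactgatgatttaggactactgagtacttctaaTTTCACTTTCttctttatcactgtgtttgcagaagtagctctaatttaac
Igtp (chr11:58199466-58199555, plus strand): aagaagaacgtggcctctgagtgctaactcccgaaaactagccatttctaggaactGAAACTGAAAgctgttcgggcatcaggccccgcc

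Red cell membrane and skeleton genes were higher as a group: 14 of 24 tested were called higher and none lower, with a median log2 difference of 2.31, and their summed level was 249 to 397 TPM in E+F+ against 81.1 to 157 TPM in E+F-. Without E+F- Set 1 the count fell to 9. Epb4.2, the band 4.2 protein of the red cell skeleton, had 10.2, 6.52 and 15.7 TPM in E+F+ and 0.18, 0.31 and 0.84 TPM in E+F-, always given in the order of Sets 1, 2 and 3 (log2 4.76 ± 0.93, adjusted p = 0.0019). Tspan33, a tetraspanin of erythroid precursors, was at 24.6, 16.9 and 35.1 TPM against 1.93, 2.89 and 3.71 TPM (log2 3.30 ± 0.46, adjusted p = 0.000173). In both genes every E+F+ library lay above every E+F- library and Set 2 was the lowest of the E+F+ libraries. Gypc, a sialic acid-rich protein of the red cell surface, had the same order of libraries, at 21.4 to 59.4 against 0.58 to 3.22 TPM.

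Several genes that are not textbook red cell genes moved by as much. The subunits of soluble guanylate cyclase, the nitric oxide receptor that makes cGMP, were both higher, Gucy1b3 at 17.98 to 21.6 TPM against a mean of 0.657 ± 0.471 TPM (SD, n = 3) and Gucy1a3 at 5.47 to 7.00 against 0.03 to 0.25 TPM. Fam65c was at 77.3, 62.8 and 35.4 TPM against 0.23, 1.22 and 2.33 TPM (log2 5.69 ± 0.70, adjusted p = 7.13e-05). Hlx, a homeobox factor, was at 10.8 to 12.4 against 0.19 to 0.85 TPM and Tspan32, a tetraspanin of blood cells, at 6.43 to 25.3 against 0.17 to 1.31 TPM. Among genes for handling neurotransmitters, Slc6a9, the glycine transporter GlyT1 that erythroid cells use to feed haem synthesis, was higher by 2.35 ± 0.47 on the log2 scale (14.0 to 20.5 against 2.87 to 4.71 TPM). Slc18a2, the vesicular monoamine transporter, was higher by 3.78 ± 0.63 and Ache, acetylcholinesterase, by 3.91 ± 0.80. None of these calls was lost in any alternative.

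Haem synthesis and iron handling were the next groups of the red cell programme, with smaller differences. Of 18 haem synthesis genes 11 were called higher and none lower (median log2 0.62). Abcb10, a mitochondrial transporter needed for haem production, was at 91.3, 67.0 and 104 TPM in E+F+ and 11.8, 14.3 and 15.6 TPM in E+F- (log2 2.78 ± 0.26, adjusted p = 1.77e-05). Blvrb, biliverdin reductase B, was 2.17-fold higher. Without Set 3 the count for the haem list was 7. Of 23 iron genes 8 were called higher and none lower (median 0.19), and 5 were called without E+F+ Set 1, without E+F- Set 1 or without E+F- Set 2. Fth1, the heavy chain of the iron store ferritin, was at 2586, 2732 and 3826 TPM in E+F+ and 1155, 1246 and 1266 TPM in E+F- (log2 1.44 ± 0.23, adjusted p = 0.000512). Ncoa4, the receptor that sends ferritin to the lysosome, was at 104 to 141 against 57.1 to 59.7 TPM (log2 1.21 ± 0.18), and Slc25a37 (mitoferrin), which brings iron into mitochondria, was higher by 1.81 ± 0.40. Slc39a8, a carrier of zinc, manganese and iron, was at 45.4 to 77.1 against 6.46 to 8.68 TPM (log2 3.13 ± 0.36, adjusted p = 4.52e-05). The light ferritin chain Ftl1, at 7091 to 8231 against 4948 to 6871 TPM, was called at 0.57 ± 0.17 but lost that call in 6 alternatives.

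Oxygen-responsive and glucose-using genes were among the most abundant of the higher calls. Of 29 hypoxia response genes 14 were called higher and 1, Arnt2, lower (log2 -1.35), with a list median of 1.31. Their summed level came to 6418, 4851 and 4306 TPM in E+F+ and to 830, 1333 and 2178 TPM in E+F-. The populations were thus farthest apart in Set 1 and closest in Set 3. The list members Slc2a1 and Slc2a3 made up most of the sum in E+F+, so its order there is largely theirs. Slc2a1, the glucose transporter Glut1 that supplies red cell precursors, followed that order at 3110, 2378 and 1936 TPM against 135, 228 and 524 TPM (chromosome 4, 119108711 to 119137983, plus strand, GRCm38.p6). Slc2a3, the high-affinity glucose transporter Glut3, also did, at 988, 824 and 506 TPM against 53.5, 162 and 329 TPM (log2 2.25 ± 0.54, adjusted p = 0.00674). Higd1a, a mitochondrial protein induced by low oxygen, was higher by 1.12 ± 0.18, and P4ha1, a collagen prolyl hydroxylase subunit, by 1.38 ± 0.32. Ankrd37, Pdk1 and Egln1 each lost their call in 8 alternatives. Without E+F- Set 1 there were 7 higher calls in the hypoxia list, without Set 3 there were 8, and on log2(TPM + 1) by limma there were 7.

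Glycolytic enzymes were called higher from Hk1 to Pkm, though Aldoa lost its call in 6 alternatives, Pkm in 3 and Pgk1 in 1. Of 32 glycolysis and lactate genes 18 were called higher and 1 lower, with a median of 0.84, and the summed level was 31352 to 37318 TPM in E+F+ and 14702 to 22233 TPM in E+F-. Gapdh, which oxidises glyceraldehyde phosphate and was among the most abundant transcripts, was at 12557, 9923 and 11491 TPM against 5844, 6559 and 7199 TPM (log2 0.91 ± 0.13, adjusted p = 0.000224). Tpi1, triose phosphate isomerase, was at 1789, 1596 and 1708 TPM against 420, 632 and 815 TPM (log2 1.58 ± 0.21, adjusted p = 0.000106). Hk1, the hexokinase that predominates in red cells, was higher by 2.41 ± 0.47 and Pfkm, a phosphofructokinase, by 1.03 ± 0.14. Ldhb, the lactate dehydrogenase subunit typical of oxidative tissues, was the exception, at 51.6, 54.7 and 39.4 TPM in E+F+ and 242, 218 and 410 TPM in E+F- (log2 -2.44 ± 0.32, adjusted p = 0.000113). Its partner Ldha, at 3972 to 4360 against 2174 to 3067 TPM, was called higher (0.75 ± 0.21) but not without E+F- Set 1 or without Set 3. Without E+F- Set 1 the glycolysis count was 11.

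The pentose phosphate and NADPH genes, which turn glucose into ribose and reducing power, had 9 of 14 called higher and none lower (median 0.73). Rpia, ribose phosphate isomerase, was at 21.95 to 37.4 against 9.59 to 10.8 TPM (log2 1.67 ± 0.22), Me1 (malic enzyme) was higher by 1.61 ± 0.23 and Tkt (transketolase) by 0.76 ± 0.12. Mitochondrial oxidation differed less. Of 27 citric acid cycle genes 5 were called higher (median 0.15), 3 without Set 3, and of 81 nuclear respiratory chain genes 16 were called higher and 1 lower (median 0.12), with sums of 31116 to 31934 TPM in E+F+ inside the 29978 to 33751 TPM of E+F-. The respiratory chain count fell to 4 without E+F+ Set 3 and to 3 without Set 3 altogether, whereas Ndufv3, an accessory subunit of complex I, kept its call in every alternative (log2 1.01 ± 0.12).

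**Figure D2:**
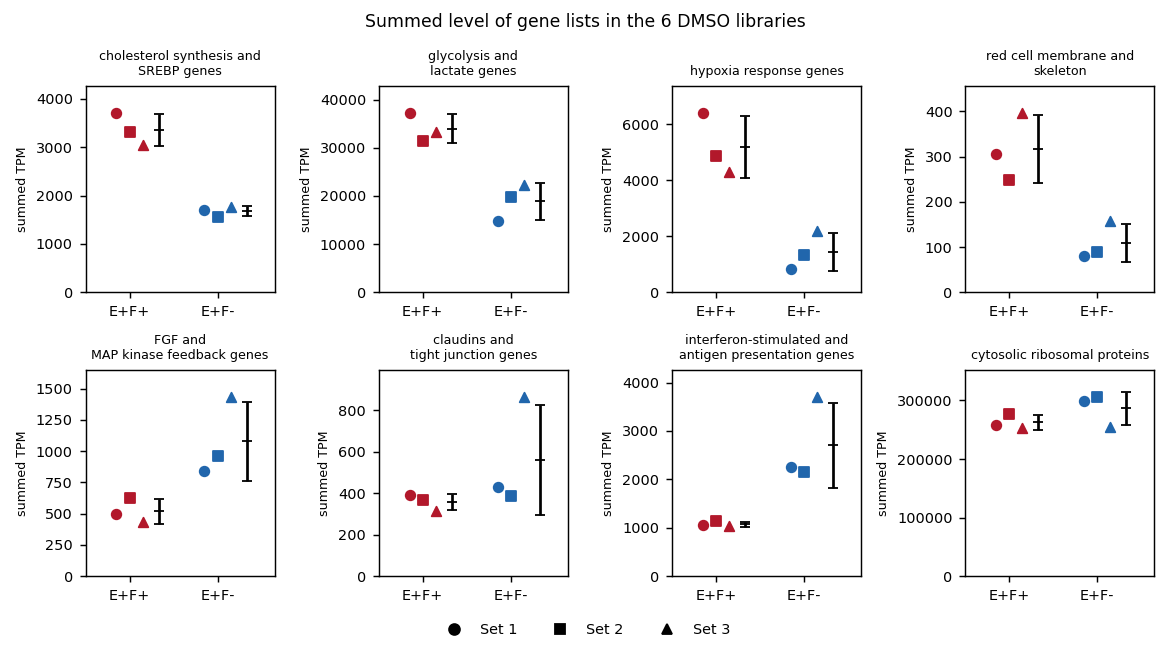
Summed TPM of the members of 8 gene lists in each of the 6 DMSO libraries (symbols for Sets 1, 2 and 3), with the mean and SD of each population beside the points (n = 3). E+F+ lies above E+F- without overlap for cholesterol, glycolysis, hypoxia and red cell membrane lists and below it for FGF feedback and interferon lists, while cytosolic ribosomal proteins overlap and E+F- Set 3 is the highest library for the claudin list at 864 TPM.

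Cholesterol synthesis genes changed little between alternatives. Of the 28 tested genes 22 were called higher and 1 lower, with a median log2 of 1.13, and 21 or 22 were higher in every alternative. Together they reached 3717, 3317 and 3054 TPM in E+F+ and 1699, 1557 and 1766 TPM in E+F-. Calls ran from the first steps to the last. Hmgcs1, which makes HMG-CoA, was at 404, 390 and 275 TPM against 173, 173 and 183 TPM. Mvk (mevalonate kinase) was at 91.3, 88.6 and 89.6 TPM against 40.2, 36.8 and 45.4 TPM. The squalene epoxidase Sqle was at 183, 152 and 149 TPM against 81.9, 68.7 and 84.1 TPM (log2 1.16 ± 0.13, adjusted p = 3.92e-05). All 3 of these genes were about 2-fold apart with no overlap. Lanosterol synthase (Lss) was at 87.1, 75.9 and 74.5 TPM against 29.2, 28.3 and 31.5 TPM (log2 1.53 ± 0.18, adjusted p = 5.6e-05). The feedback protein Insig1 was higher by 1.11 ± 0.22 and the sterol carrier Stard4 by 1.18 ± 0.19. Srebf2, the transcription factor of the pathway, was called at 0.58 but lost its call in 6 alternatives. Ebp, the sterol isomerase, was the one lower member, at 18.8 to 27.7 against 39.8 to 47.4 TPM (log2 -0.73 ± 0.17).

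Fatty acid genes followed in part, with 12 of 39 called higher and 3 lower (median 0.32). The desaturases stood out: Fads2 was at 186, 174 and 192 TPM against 64.9, 67.2 and 65.0 TPM (log2 1.60 ± 0.18, adjusted p = 3.92e-05), Fads1 was higher by 1.13 ± 0.16 and Scd1 by 1.68 ± 0.26. Acly, which makes cytosolic acetyl-CoA, was at 279 to 299 against 145 to 147 TPM (log2 1.11 ± 0.13, adjusted p = 4.68e-05). Elovl2, an elongase of very long polyunsaturated chains, was lower at 0.92 to 1.34 against 4.03 to 5.36 TPM. Of 26 vitamin A, lipid binding and lipoprotein genes 7 were called higher and 4 lower. Scarb1, the HDL receptor, was at 69.6, 78.0 and 95.5 TPM against 8.79, 19.3 and 25.2 TPM (log2 2.32 ± 0.26, adjusted p = 3.92e-05). Lrp2 (megalin) and its adaptor Dab2, which take up lipoproteins and vitamin carriers in yolk sac and kidney, were higher by 3.95 ± 0.72 and 2.16 ± 0.32. The fatty acid receptor Cd36 was lower, at 0.00 to 0.02 against 0.30 to 0.99 TPM (log2 -5.73 ± 1.16), as was the lipoprotein receptor Lrp8 (-0.82 ± 0.27).

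Genes of the integrated stress response, the programme by which cells facing amino acid shortage or misfolded protein slow translation and raise Atf4, were the fourth abundant group. Of 31 unfolded protein and integrated stress response genes 12 were called higher and 1 lower (median 0.26). Trib3, a pseudokinase induced by Atf4 and Ddit3, was at 59.1, 38.5 and 63.1 TPM in E+F+ and 2.14, 10.8 and 4.72 TPM in E+F- (log2 3.28 ± 0.49, adjusted p = 0.00031). Ddit3 (Chop) was at 60.5 to 85.2 against 19.9 to 24.2 TPM (log2 1.87 ± 0.29), Atf4 itself at 429, 302 and 400 against 163, 203 and 141 TPM (log2 1.26 ± 0.23, adjusted p = 0.00118), and Atf5 was higher by 1.27 ± 0.21. Enzymes that this response induces were also called: Asns (asparagine synthetase) by 0.93 ± 0.19 and Phgdh, the first step of serine synthesis, by 1.21 ± 0.18. Of 37 aminoacyl-tRNA synthetases, which charge tRNAs with amino acids, 14 were called higher and none lower (median 0.25), led by Gars at 1.02 ± 0.14, Yars at 0.95 ± 0.16 and Sars at 0.85 ± 0.11. Without Set 3 that count was 6. Eif4ebp1, the repressor of cap-dependent translation, was at 621 to 666 against 337 to 403 TPM (log2 0.90 ± 0.15). Bmf, a BH3-only activator of cell death, was at 30.5 to 40.1 against 4.80 to 12.3 TPM (log2 2.45 ± 0.48).

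Protection against peroxides belonged to the same side. Of 39 glutathione, thioredoxin and peroxide genes 16 were called higher and 4 lower (median 0.34), a count of higher genes that was 7 without E+F+ Set 3 and 10 without Set 3 altogether. Cat (catalase) was at 77.7, 71.4 and 78.9 TPM against 46.5, 41.4 and 56.2 TPM (log2 0.79 ± 0.09, adjusted p = 3.92e-05). Gpx3, Gsta4 and the mitochondrial peroxiredoxin Prdx3 were higher by 1.43 ± 0.18, 1.37 ± 0.17 and 0.99 ± 0.18. Gpx7 and Prdx4, which act in the endoplasmic reticulum, were on the other side, at -1.10 ± 0.19 and -0.61 ± 0.19, and the call of Prdx4 was lost in 4 alternatives. Growth lists differed among themselves. None of 82 cytosolic ribosomal protein genes was called in either direction (median -0.03), on TPM + 1 by limma 5 were called lower, and 8 of 43 DNA replication genes were called higher (median 0.12), 4 without E+F+ Set 3 or without E+F- Set 3 and 2 without all Set 3 libraries. Of 28 mitosis genes 7 were called higher and none lower (median 0.18), and 4 were higher without E+F+ Set 2, without any single E+F- library or without Set 3 altogether. Ccnd3, the D-type cyclin of erythroid cells, was at 316 to 380 against 156 to 205 TPM (log2 1.04 ± 0.13), and Mycn was lower at 28.4 to 33.5 against 68.2 to 83.6 TPM (log2 -1.18 ± 0.24).

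**Figure D3:**
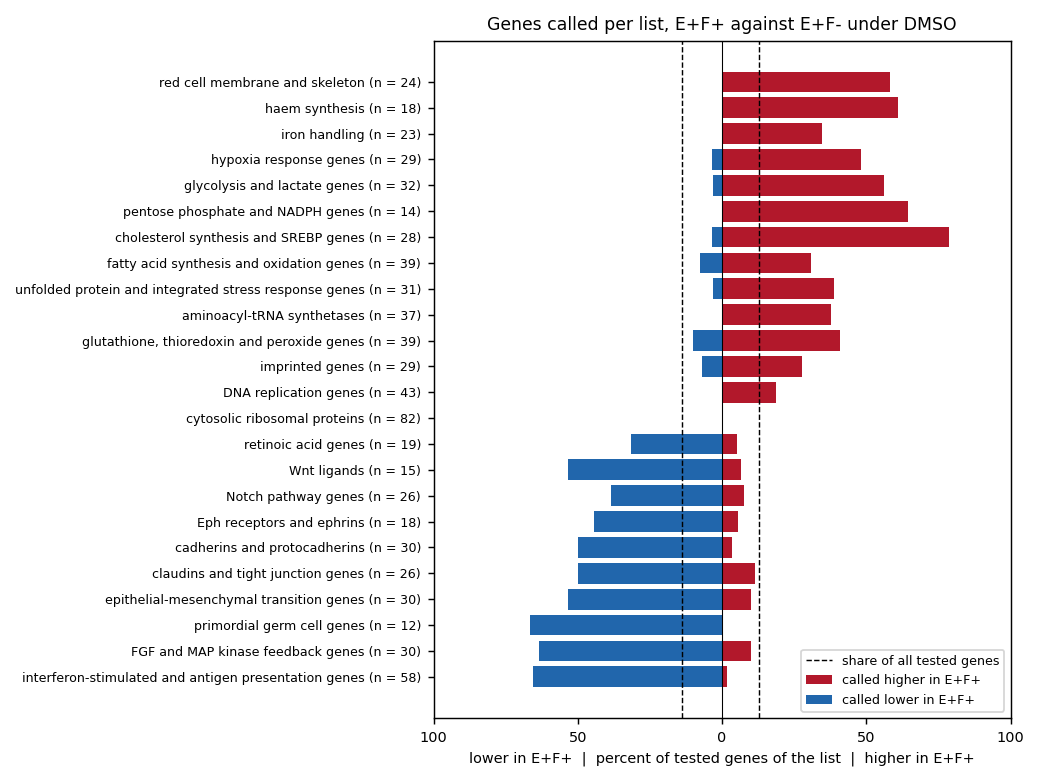
Percent of the tested members of 24 gene lists that were called higher in E+F+ (red, right) or lower (blue, left), with the number tested beside each name and dashed lines at 12.8% and 13.8%, the shares of all tested genes. Cholesterol, pentose phosphate, red cell and haem lists reach farthest right, and primordial germ cell, interferon and FGF feedback lists farthest left.

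Imprinted genes are expressed from a single parental copy, and many of them regulate fetal growth. Igf2, Mest and Phlda2 had wide differences at a high level. Igf2, the paternally expressed growth factor, was at 2878, 2546 and 2611 TPM in E+F+ and 163, 340 and 537 TPM in E+F- (log2 3.05 ± 0.58, adjusted p = 0.00159; chromosome 7, 142650766 to 142666816, minus strand). Mest, also paternally expressed and a marker of mesoderm, was at 1106, 1032 and 867 TPM against 27.3, 65.6 and 169 TPM (log2 3.69 ± 0.56, adjusted p = 0.00031). Phlda2, a maternally expressed growth inhibitor that lies near Igf2 on chromosome 7 (143501545 to 143503150), went the other way at 268, 452 and 231 TPM against 3309, 2387 and 1397 TPM (log2 -2.81 ± 0.68, adjusted p = 0.00703). In all 3 genes E+F- Set 1 was the farthest from the E+F+ libraries and E+F- Set 3 the nearest. Grb10 and Snrpn were higher by 2.37 ± 0.47 and 1.29 ± 0.25, so that 8 of 29 imprinted genes were called higher and 2 lower (median 0.15), with Cdkn1c and Asb4 losing their calls in 8 and 5 alternatives. Without E+F- Set 1 or without E+F- Set 2 the count of higher genes was 5.

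Endothelial genes leaned to the higher side, and VEGF genes were split. Of 37 endothelial genes 16 (43.2%) were called higher and 4 (10.8%) lower (median 1.35), 10 higher without E+F+ Set 3. Of 10 VEGF ligands and receptors 4 were higher and 3 lower. Egfl7, a matrix protein secreted by endothelium, was at 109, 104 and 116 TPM against 50.6, 53.7 and 51.4 TPM (log2 1.22 ± 0.13, adjusted p = 2.56e-05), and Ets1 was higher by 1.39 ± 0.19. Nrp2, a co-receptor for VEGF-C and semaphorins, was lower at 5.15, 3.38 and 3.85 TPM against 26.6, 36.4 and 66.6 TPM (log2 -3.22 ± 0.39, adjusted p = 6.53e-05). Single matrix genes differed in both directions. Of 28 laminins and other basement membrane genes 4 (14.3%) were higher and 4 (14.3%) lower, shares near the 12.8% and 13.8% of all tested genes. That list had 2 higher without E+F- Set 1 or without E+F- Set 2, 7 higher without Set 3 and 1 lower without any single E+F+ library. Of 36 fibronectin, fibrillin and matrix sugar protein genes 9 were higher and 7 lower, 3 lower without E+F+ Set 3. Lama4 was higher by 2.32 ± 0.48, Col4a5 by 2.21 ± 0.32, Col4a2 by 1.24 ± 0.26, the proteoglycan Vcan by 2.55 ± 0.47 and the hyaluronan synthase Has2 by 1.68 ± 0.38. Fibronectin (Fn1), on which mesoderm migrates, was lower at 213, 172 and 135 TPM against 533, 668 and 698 TPM (log2 -1.75 ± 0.40, adjusted p = 0.00468), as were the cartilage collagen Col2a1 (-3.30 ± 0.48) and Ctgf (-1.98 ± 0.39). Of 33 collagens 6 were higher and 9 lower, 14 were higher without Set 3, and 5 were lower without E+F+ Set 1 or without E+F+ Set 3. Car4, a membrane-bound carbonic anhydrase, was at 804, 870 and 261 TPM against 47.9, 73.8 and 64.7 TPM (log2 3.49 ± 0.57, adjusted p = 0.000543), with E+F+ Set 3 well under Sets 1 and 2 and still above every E+F- library.

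Retinoic acid, made by Aldh1a2 from vitamin A and destroyed by Cyp26 enzymes, patterns the trunk, and of its 19 tested genes 6 were called lower and 1 higher (median -1.02). Cyp26a1 was at 1.68, 3.84 and 3.06 TPM in E+F+ and 323, 455 and 371 TPM in E+F- (log2 -6.93 ± 0.99, adjusted p = 0.000214; chromosome 19, 37697798 to 37701536, plus strand), and the whole list summed to 190 to 211 TPM and 693 to 831 TPM. Aldh1a2 was at 0.09 to 0.11 against 8.99, 11.9 and 1.21 TPM, with E+F- Set 3 the lowest of its group. Both the enzyme that makes the signal and the enzyme that removes it were thus lower. Rxra, a partner of the retinoic acid receptors, was the higher member (1.06 ± 0.18).

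Of 30 FGF and MAP kinase feedback genes 19 were called lower and 3 higher (median -2.20), between 17 and 19 lower when single libraries were left out. Fgf8, the ligand of the streak, was at 0.24, 0.13 and 0.47 TPM against 59.0, 87.6 and 237 TPM. Its targets Etv4, Etv5 and Etv1 were lower, Etv4 at 1.06, 1.03 and 0.93 TPM against 40.5, 32.7 and 47.3 TPM (log2 -5.19 ± 0.43, adjusted p = 5.85e-06), Etv5 by a log2 of -3.77 ± 0.51 and Etv1 of -3.33 ± 0.39. Among the phosphatases and inhibitors that FGF signalling induces against itself, Dusp4, Dusp6 and Spry4 were lower, Dusp4 at -4.52 ± 0.47, Dusp6 at -3.74 ± 0.50 and Spry4 at -5.79 ± 0.70. Fgfr2 and Fgfr3 were higher, Fgfr2 at 69.2, 88.3 and 31.9 TPM against 5.20, 10.1 and 9.25 TPM (log2 3.08 ± 0.55, adjusted p = 0.00101) and Fgfr3 by 2.26 ± 0.37. The third higher member was the phosphatase Dusp9, at 121, 154 and 107 TPM against 50.3, 76.0 and 78.6 TPM (log2 1.02 ± 0.25, adjusted p = 0.0082).

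Of 15 Wnt ligands 8 were called lower and 1 higher (median -2.70), with Wnt5b at 0.78, 1.22 and 1.10 TPM against 50.4, 33.0 and 59.4 TPM (log2 -5.32 ± 0.58, adjusted p = 3.56e-05), Wnt6 at -3.72 ± 0.49, and Wnt2, which is expressed in extra-embryonic mesoderm, higher by 1.45 ± 0.30. Of 26 Notch pathway genes 10 were lower and 2 higher (median -0.54). Of 18 Eph receptors and ephrins, which sort cells by repulsion at boundaries, 8 were lower and 1 higher, the receptor Epha1 at 1.58 to 1.98 against 27.5 to 77.5 TPM (log2 -4.50 ± 0.69) and the ligand Efnb1 at 54.0 to 58.9 against 26.6 to 30.2 TPM (1.10 ± 0.19). Among the genes with the widest differences of all were Gfra3, a receptor for artemin, at 0.00 to 0.04 against 8.73 to 16.7 TPM (log2 -8.67 ± 0.97, adjusted p = 3.92e-05), and Alox15, a lipoxygenase that makes lipid mediators, at 0.07, 0.32 and 0.06 TPM against 36.3, 38.8 and 59.9 TPM (log2 -8.03 ± 0.84, adjusted p = 2.58e-05). Neither gene belonged to a developmental list.

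Cadherins and tight junction genes both leaned to the lower side. Cdh1, the E-cadherin of epithelia, was at 2.27, 1.58 and 2.08 TPM in E+F+ and 29.3, 32.9 and 145 TPM in E+F- (log2 -4.95 ± 0.83, adjusted p = 0.000642), and the N-cadherin Cdh2, which mesoderm gains as it leaves the streak, was lower as well at 26.7, 25.1 and 15.8 TPM against 122, 119 and 115 TPM (log2 -2.28 ± 0.46, adjusted p = 0.00223). In all, 15 of 30 cadherins and protocadherins were lower and 1 higher (median -1.35). Of 26 claudin and tight junction genes 13 were lower and 3 higher (median -1.53). Cldn6 was at 4.86, 2.41 and 1.55 TPM against 39.9, 29.2 and 130 TPM (log2 -4.34 ± 0.81, adjusted p = 0.0013), and the epithelial genes Epcam, Crb3 and Esrp1 were at -3.34 ± 0.63, -4.11 ± 0.73 and -4.45 ± 0.85. E+F- Set 3 was the highest library for each of these 5 epithelial genes, and the calls remained without it. Cldn11 and the junction protein Cgnl1 were higher, Cldn11 at 14.0 to 16.4 against 0.14 to 0.80 TPM (log2 5.16 ± 1.00) and Cgnl1 at 86.4 to 133 against 31.4 to 32.8 TPM (log2 1.90 ± 0.22).

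**Figure D4:**
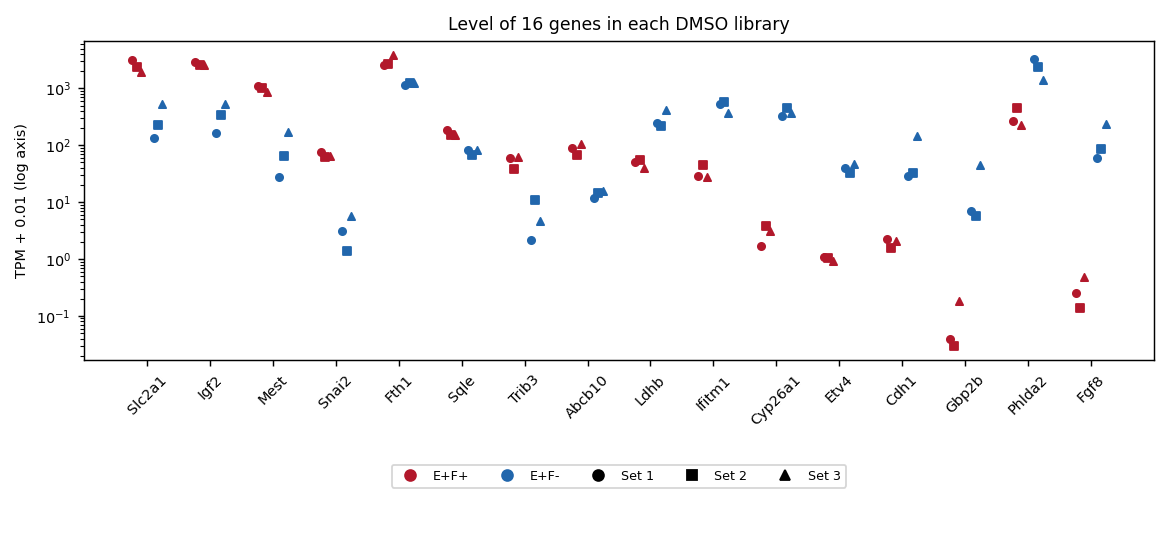
Level of 16 genes in each of the 6 DMSO libraries (TPM + 0.01, log axis; red E+F+, blue E+F-, symbols for Sets 1, 2 and 3). No gene overlaps between the populations, and for Gbp2b, Cdh1 and Fgf8 the highest E+F- library is Set 3, at 44.3, 145 and 237 TPM.

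Genes that interferons induce, together with those that prepare peptides for MHC class I, were lower in E+F+. This list was drawn up after its first members had been seen to differ, so its count is a description: 38 of 58 were called lower and 1 higher, with a median of -2.58. Summed levels were 1061, 1136 and 1035 TPM in E+F+ and 2253, 2143 and 3708 TPM in E+F-. Ifitm1, a membrane protein that blocks virus entry and is also expressed in early mesoderm and germ cells, was at 28.9, 45.3 and 27.7 TPM against 527, 576 and 362 TPM (log2 -3.74 ± 0.38, adjusted p = 2.31e-05). Irf1, a factor induced by interferon gamma, was at 7.12, 5.86 and 4.85 TPM against 62.1, 41.8 and 138 TPM, and the guanylate-binding protein Gbp2 was at 0.43, 0.37 and 0.97 TPM against 17.3, 11.8 and 98.3 TPM. Isg15, a ubiquitin-like modifier, was at 0.61, 0.77 and 0.96 TPM against 5.56, 4.60 and 27.8 TPM. These 3 genes were highest in E+F- Set 3 and did not overlap between the populations in any Set. The immunoproteasome subunit Psmb8 (log2 -5.39) and the peptide transporter Tap2 (-4.62 ± 0.87) were lower, whereas the class I molecule H2-K1 and its light chain B2m were not called (-0.03 ± 0.47 and -0.46 ± 0.26, adjusted p = 0.972 and 0.206). Iigp1, an interferon-inducible GTPase, was at 0 in all E+F+ libraries and at 0.28 to 7.47 TPM in E+F-. Against a floor of 3 counts in each library, E+F+ was at least 35.1-fold below the E+F- mean. Without Set 3 the list had 29 lower calls, and the calls of Ifitm3 and Psmb9 were lost without E+F- Set 3 (adjusted p of 0.0830 and up to 0.113).

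Germ cell genes were lower as well, with 8 of 12 called lower, none higher and a median of -2.60, a count that went down to 4 without E+F- Set 3 and 5 without Set 3 altogether, and 4 on log2(TPM + 1) by limma. Ddx4, a helicase of germ cells, was at 0.11 to 0.45 against 1.16 to 3.72 TPM (log2 -3.03 ± 0.61), and Sycp3, of the meiotic chromosome axis, at 1.59 to 3.54 against 9.84 to 20.97 TPM (log2 -2.53 ± 0.52). Prdm14, a regulator of germ cell fate, was at 0 in E+F+ and 0.30 to 2.80 TPM in E+F-, at least 16.2-fold lower. Most of the list's summed level of 629 to 682 TPM in E+F- was Ifitm1. Among 111 ion channels 30 were called lower and 9 higher (median -0.40), with 19 lower without E+F+ Set 3 and 15 without Set 3, and 5 higher without E+F- Set 1. Many were at a low level: the potassium channel Kcnc2 was at 0.00 to 0.04 against 0.38 to 0.63 TPM and the calcium channel subunit Cacng4 at 0.14 to 0.33 against 1.50 to 2.74 TPM. Members at or near 0 in E+F+, such as Kcnc2 and Prdm14, could reach enough counts for the test only in other groups. The direction of such members was largely fixed beforehand, so the ion channel and germ cell counts are descriptions.

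Of 31 Hox genes 5 (16.1%) were lower and 3 (9.68%) higher (median -0.999), shares near the 13.8% and 12.8% of all tested genes, and 1 was higher without E+F- Set 2. Within the B cluster, Hoxb1 was at 0.44, 2.95 and 1.11 TPM against 116, 110 and 40.1 TPM (log2 -5.78 ± 0.99, adjusted p = 0.000752), and Hoxb5 of the same cluster was at 4.77, 5.34 and 6.32 TPM against 0.24, 0.26 and 0.72 TPM (log2 3.89 ± 0.84, adjusted p = 0.00349). Hoxb4 was higher by 1.89 ± 0.50, a call lost without E+F- Set 2 or without Set 3. Snai2, a zinc-finger repressor of the epithelial state, was at 77.7, 63.4 and 63.6 TPM against 3.04, 1.38 and 5.67 TPM. Its list of epithelial-mesenchymal transition genes mixes genes of both states, and 16 of 30 were lower and 3 higher (median -1.85). Without E+F- Set 3 the lower count was 12. The lower members included the epithelial genes Cdh1, Epcam, Crb3 and Esrp1 but also Snai1, Cdh2 and Fn1. The 3 higher members were Snai2, Vim and Twist2. Chromatin regulators included Tet3, a 5-methylcytosine oxidase, at 8.52 to 11.4 against 3.52 to 5.96 TPM (log2 1.35 ± 0.17) and Hmga2, an architectural protein of embryonic cells, at 34.6 to 54.8 against 135 to 222 TPM (log2 -1.73 ± 0.33). Of 32 alpha-defensin, small proline-rich and predicted multicopy genes, which have near-identical copies, 25 had too few counts to test. The other 7 were all called lower, and the 32 together summed to 0.53 to 0.60 TPM against 255 to 614 TPM. With so little in E+F+, a member could reach enough counts only in other groups. Its direction was therefore largely fixed beforehand, and the count is a description. Reads of near-identical copies can be split among them, so the single values are uncertain. Defa22 was at 0 against 12.0 to 24.4 TPM, at least 29.8-fold lower, and Sprr2a1 was at 0.04, 0.09 and 0.11 TPM against 2.32, 9.78 and 166 TPM.

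The same 2 populations cultured with IWR-1 gave values from separate libraries. Of the 3681 genes called under DMSO 3613 (98.2%) had the same sign under IWR-1. These genes were selected on their DMSO values, so the share is a description. The list medians under DMSO and IWR-1 were 1.31 and 0.40 for hypoxia, 0.84 and 0.26 for glycolysis, 1.13 and 0.84 for cholesterol synthesis, and -2.58 and -2.07 for the interferon list. Other lists were wider apart under IWR-1. Their medians were 2.31 and 2.61 for red cell membrane genes, -2.60 and -3.29 for germ cell genes, and -1.02 and -1.28 for retinoic acid genes. A test of the difference between the contrasts called 4 of 13826 genes (0.0289%), all at an adjusted p of 0.0492 by edgeR. In that test 539 genes had an unadjusted p under 0.05, a smaller share than the 0.05 expected if no gene differed. Kitl, the ligand of the Kit receptor of blood and germ cell progenitors, was at 2.06, 2.10 and 1.43 TPM in E+F+ and 8.99, 6.18 and 5.22 TPM in E+F- under DMSO, and at 3.25, 2.07 and 1.81 TPM and 1.13, 1.17 and 1.39 TPM under IWR-1, so that the order of the populations was reversed. Cobll1, an actin-binding protein, was 38.9, 34.3 and 31.0 TPM in E+F+ under DMSO and 18.4, 16.8 and 18.7 TPM under IWR-1, with E+F- at 1.45 to 3.70 and 4.30 to 5.63 TPM. Bmp4, the ligand that induces extra-embryonic mesoderm and blood, was at 121 to 173 TPM in E+F+ and 106 to 156 TPM in E+F- under DMSO, and at 73.1 to 102 and 14.4 to 17.3 TPM under IWR-1. Fbxl14, a subunit of a ubiquitin ligase that targets Snail proteins, was at 30.4 to 34.8 and 99.9 to 135 TPM under DMSO and 30.7 to 36.6 and 37.9 to 44.2 TPM under IWR-1. Without E+F- DMSO Set 3 only Cobll1 and Kitl were called, and without any other single library of the 4 groups none was.

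**Figure D5:**
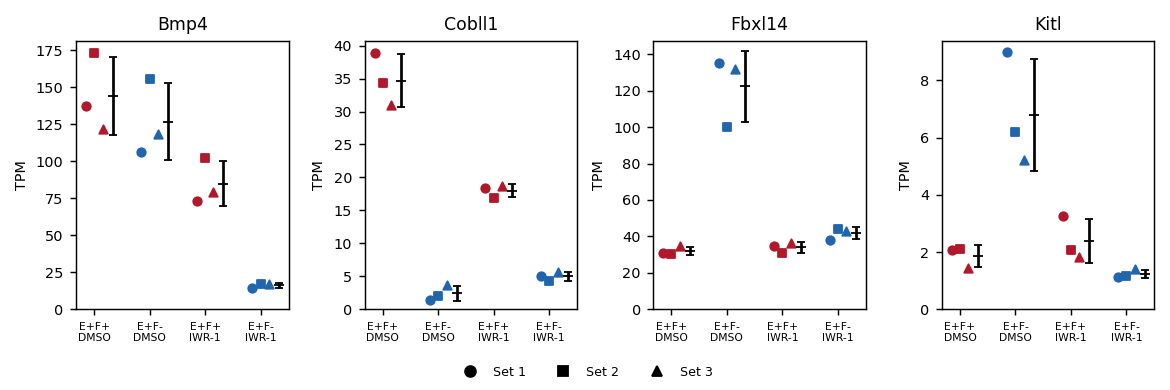
TPM of Bmp4, Cobll1, Fbxl14 and Kitl in the 3 libraries of each of 4 groups (E+F+ and E+F- under DMSO and under IWR-1), with mean and SD (n = 3). In Bmp4, Fbxl14 and Kitl the E+F- libraries fall from DMSO to IWR-1, Kitl from 5.22 to 8.99 TPM down to 1.13 to 1.39 TPM.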

How the data were processed

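Per the labels, total RNA was made into TruSeq RNA v2 libraries, which do not mark strand, and read as single 51-base reads. The authors called bases with CASAVA 1.8.2, aligned reads to RefSeq transcripts (Illumina iGenomes, mm10) with Bowtie 0.12.9 and estimated gene levels with RSEM 1.2.3, and they deposited expected counts and TPM. Without strand, overlapping genes cannot be told apart, and RSEM splits reads among near-identical copies.

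The expected counts, rounded, entered edgeR 4.0.16 under R 4.3.3, with TMM scaling, filterByExpr by group, quasi-likelihood, 1 coefficient for each of 6 groups of 3 over 18 libraries, Benjamini-Hochberg adjustment, called at an adjusted p under 0.05. Levels are TPM, and a difference is log2 of E+F+ over E+F- with its SE. A gene at 0 throughout a group is given as a bound, the mean of the other group over a floor of 3 counts in each library. The depth was 19725500 to 26478754 counts per library. Alternatives used DESeq2 1.42.0, RLE scaling, no filter, only the 6 libraries, the Set number as a block, each library or Set 3 left out, and limma 3.58.1 on log2(TPM + 1) and log2(TPM + 0.1). On simulated counts, 4-fold changes were recovered and smaller changes in part. The simulation gave every gene the same spread and no difference between Sets, so it does not show the recovery in these libraries. Here Col1a1 was not called at a log2 difference of 3.00 (adjusted p = 0.0691, edgeR).

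Named genes were up to 3 per list and direction by adjusted p, the 20 per direction with the largest difference at 10 TPM or more without overlap, the 10 per direction with the highest level, and the study's own genes. All others (among them Hk1, Slc2a3, Scd1, Atf5, Gucy1a3, Grb10, Cdh2, Isg15 and Tap2) were chosen after their values were seen. Members and lists were chosen with earlier results of these data known, and 2 lists (interferon-stimulated and antigen presentation genes, and alpha-defensin and similar genes) were added after values were seen. Some items are not reported here. Promoters come from RefSeq and gene coordinates from GENCODE vM21, both GRCm38.p6.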

Additional observations from a re-analysis of the deposited data

Results flagged for a closer look

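The difference between E+F+ and E+F- was not the same under DMSO and IWR-1 for 4 genes by a test of that difference itself (edgeR, adjusted p = 0.0492 for each, n = 3 libraries per group). For Bmp4 the log2 difference was 0.30 under DMSO and 2.40 under IWR-1, a change of -2.10. For Kitl it was -1.77 and 0.96, a change of -2.73. For Cobll1 it was 4.004 and 1.86, a change of 2.14. For Fbxl14 it was -1.82 and -0.29, a change of -1.53. In Bmp4, Kitl and Fbxl14 the values that moved with IWR-1 were mainly those of E+F-.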

How the results depend on the processing

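All main calls that were also called in an alternative kept their direction, and the total lay between 2566 and 4967. Calls on TPM leaned to the lower side, with 1081 higher on log2(TPM + 1) and 1139 on log2(TPM + 0.1) by limma, and 1187 genes of at least 2-fold on log2(TPM + 1) against 2038. The number of genes whose difference changed between DMSO and IWR-1 was 0 with RLE scaling, 28 with DESeq2, 0 without Set 3 and between 0 and 2 without single libraries. The sign of Eng, which was not called, was turned without E+F+ Set 3 (-0.11) and without E+F- Set 1 (-0.16), and single libraries left out gave -0.16 to 0.41. H2-K1, also not called, changed from -0.03 to 0.12 with the Set block, 0.0011 without E+F+ Set 2, 0.75 without E+F- Set 3 (-0.31 to 0.75 over single libraries), 0.72 without Set 3, 0.073 on log2(TPM + 1) and 0.078 on log2(TPM + 0.1), and the cause was not tested. The Set number as a block gave 4967 calls. The Sets were not shown to be paired: same-numbered libraries correlated at 0.098, 0.235 and 0.221 after group means were removed, though each library correlated best with its own number, a hint from the data and not from the design. Of 514 genes examined singly (507 with the 6 libraries only), between 441 and 513 kept their result in each alternative. Depth limits genes of few counts, where a level of 0 gives only a bound.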
